A study of Mus musculus with 6 samples.

Results

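Eph receptors and their ligands, the ephrins, were measured in the optic fissure. This groove along the ventral side of the optic cup must close for the eye to be complete. The set held 10 mouse genes, the ephrins Efna5, Efnb1, Efnb2 and Efnb3 and the receptors Epha3, Epha4, Epha5, Epha7, Ephb2 and Ephb3, and every probe set that the platform annotation assigned to 1 of these symbols alone was taken. That gave 28 of 45037 probe sets, for 9 of the 10 genes. No probe set carried the single symbol Ephb2, which was not analysed here. The samples were 6 Affymetrix arrays of laser-dissected optic fissure from C57BL/6J embryos at E11.5. All embryos carried loxP-flanked Fgfr1 and Fgfr2 on both alleles. The 3 control arrays were Six3Cre-;Fgfr1fx/fx;Fgfr2fx/fx, and the 3 mutant arrays were Six3Cre+;Fgfr1fx/fx;Fgfr2fx/fx, so that Cre, under control of Six3, a gene of the early eye field and ventral forebrain, can delete the receptors in cells of that lineage. A source label calls the controls wild type, although they carry the floxed alleles. Each of the numbers 8711, 9216 and 9266 named 1 control and 1 mutant array. Whether the arrays of a group come from separate embryos or pools is not stated, and p-values therefore rest on a spread among arrays that may be technical only.

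Eph receptors form the largest family of receptor tyrosine kinases. Ephrin-A ligands are held to the membrane by a lipid anchor and bind mainly EphA receptors, and ephrin-B ligands span the membrane and bind mainly EphB receptors, with Epha4 also binding ephrin-Bs. Because ligand and receptor both sit on cell surfaces, contact between neighbouring cells sends a forward signal into the receptor cell and a reverse signal into the ephrin cell, which separates tissues, sets boundaries and steers axons. In the developing eye, graded EphA and EphB receptors and ephrins along the nasotemporal and dorsoventral axes help to map retinal axons onto the brain.

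Among the 9 genes measured, Efnb3 was the one with lower values in every mutant array than in any control array, and Epha7 the one with higher values, when each gene was read by its brightest probe set. Efnb3 had a linear control mean of 264 ± 40.2 (SD, n = 3), against a mutant mean of 118 ± 21.7 (SD, n = 3), and Epha7 a control mean of 79.8 ± 26.8 (SD, n = 3), against 162 ± 11.1 (SD, n = 3). The other 7 genes had overlapping groups. Over all 12282 tested genes, groups did not overlap for 5.43% on the lower side and 9.44% on the higher side. None of the differences passed the test over all probe sets, and all of them are therefore given as values.

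The series as a whole sets the limits. Groups were compared with limma on log2(intensity + 1.7), and a probe set was tested if its mean over the 6 arrays was at or above the 40th percentile, an intensity of 15.1. Of the 28 probe sets, 21 were tested and 7 lay under that level. Of all 27022 probe sets tested, 0 (0%) passed a Benjamini-Hochberg adjusted p of 0.05, while at an unadjusted p under 0.05 there were 817 higher (3.02%) and 689 lower (2.55%). The mutant 8711 array stood apart from the others. Its ratio of 3 prime to 5 prime Gapdh signal was 93.6, against 4.26 to 14.96 in the other 5 arrays. The same ratio for Actb was 14.8, against 6.03 to 12.07. Its median intensity was 18.1, against 28.6 to 34.5. It was the lowest of the 6 arrays in 38.3% of all tested probe sets and the highest in 23.8%, each the largest share of any array. Of the 21 tested Eph and ephrin probe sets it was the lowest array in 11 and the highest in 2. The member differences below are therefore given over the 6 arrays and without it. For the targeted receptors, the brightest Fgfr1 probe set read 89.8 to 247 in the controls and 59.9 to 141 in the mutants, and the brightest Fgfr2 probe set 314 to 474 and 870 to 1316. Where these probes lie relative to the floxed exons was not analysed here, so these values check nothing about the genotypes. Genes of the ventral optic cup were detected in all arrays (Aldh1a3, a retinoic acid synthesis enzyme, from 2330 to 6234).

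**Figure D1:**
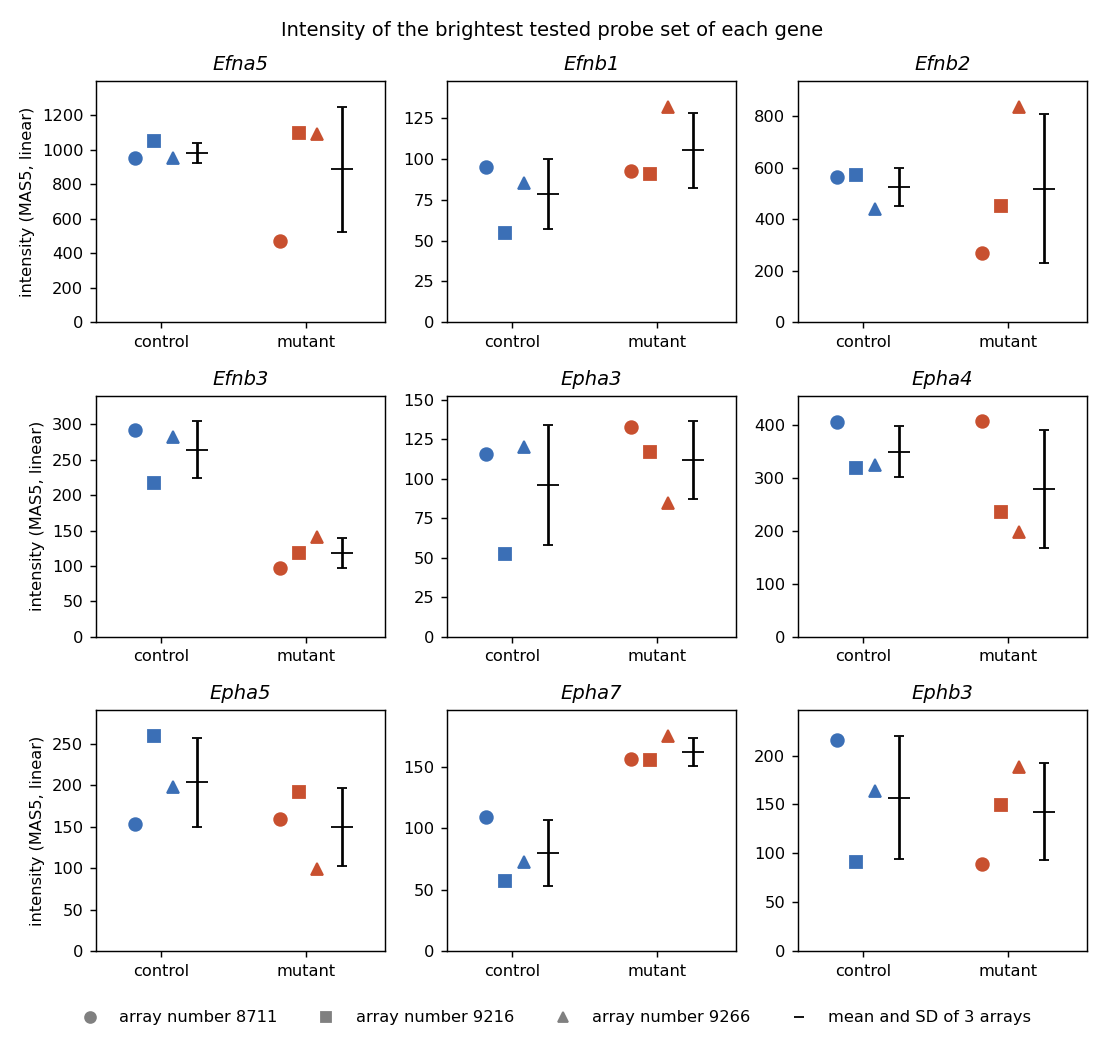
Linear MAS5 intensity of the brightest tested probe set of each of the 9 genes, by genotype. Symbols mark the array number, and the black bars to the right of each group give the mean and SD of 3 arrays. Control and mutant points are separate for Efnb3, with the mutants lower, and for Epha7, with the mutants higher, and mix for the other genes.

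Efnb3 encodes ephrin-B3, a transmembrane ligand best known for keeping axons of the spinal cord from crossing back over the midline. Its 1 probe set, 1423085_at, read 292, 218 and 282 in control arrays 8711, 9216 and 9266, against 97.0, 118 and 140 in mutant arrays 8711, 9216 and 9266, and values below keep that order. The highest mutant value was below the lowest control value. The log2 difference, mutant minus control, was -1.15 (SE 0.25), with a 95% confidence interval from -1.75 to -0.55, a limma p of 0.00277 and an adjusted p of 0.516 over all probe sets. Without the mutant 8711 array it was -1.02 (SE 0.24), with an adjusted p of 0.253. At an unadjusted p under 0.05 Efnb3 was the 1 gene of 9 on the lower side, where 2.52% of all 12282 tested genes were called. Its groups did not overlap, as was so for 5.43% of all genes on the lower side.

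Efnb1 and Efnb2, the other ephrin-B genes, did not share that pattern. Efnb1, an X-linked ligand that acts at tissue boundaries, read 95.3, 54.4 and 85.5 in the controls, against 92.9, 91.0 and 132 in the mutants with its brightest probe set, 1418286_a_at. Only control 9216 and mutant 9266 lay away from the other 4 arrays, and the groups overlapped. The log2 difference was 0.43 (SE 0.32), with an interval from -0.33 to 1.20, and 0.51 (SE 0.33) without mutant 8711. A dimmer probe set, 1418285_at, had -0.44 with a mutant 8711 value of 6.3, and 0.45 without that array, so that all 3 Efnb1 probe sets were above 0 there, from 0.44 to 0.51.

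Efnb2 encodes ephrin-B2, a ligand of arterial endothelium and of many epithelia. Probe set 1419639_at read 564, 570 and 438 in the controls, against 270, 450 and 836 in the mutants. The mutant values spread on both sides of the controls, in the order 8711, 9216 and 9266. The log2 difference was -0.16 (SE 0.41), with an interval from -1.12 to 0.81, and it changed sign without mutant 8711 (0.24) and with each array centred on its median (0.0049). The second probe set, 1419638_at, had -0.41 (-0.20 without mutant 8711) and the third, near the filter level, 0.56 (0.48 without it). The third, 1449549_at, read 15.9, 12.1 and 12.4 in the controls, against 23.0, 23.9 and 15.5 in the mutants. Its control mean of 13.5 lay under the filter level of 15.1. It passed the filter through the mutant arrays, so its difference is not separate support. Vascular endothelium markers, whose cells carry Efnb2, summed to 362.3 to 681.1 in the controls and 253.0 to 508.5 in the mutants over 7 tested of 9 genes, with 4 lower and 3 higher, and were lowest in mutant 8711. Their part in the Efnb2 values was not tested.

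Efna5 was the only ephrin-A gene of the set. It encodes ephrin-A5, a lipid-anchored ligand that repels axons of EphA-bearing retinal cells. Probe set 1436866_at read 950, 1048 and 949 in the controls, against 469, 1099 and 1092 in the mutants. The control values differed little among themselves, mutant 8711 read less than any other array, and the other mutant arrays read slightly above the highest control. The difference was -0.25 (SE 0.35, interval -1.07 to 0.58) over the 6 arrays and 0.16 (SE 0.16) without mutant 8711. The other Efna5 probe set lay under the filter, at 9.2 or less in each array.

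Epha7 encodes a receptor with splice forms able to turn repulsion into adhesion, known in neural tube closure and cortical development. It was the receptor with the clearest separation of the groups. Probe set 1443485_at read 109, 57.1 and 73.0 in the controls, against 156, 155 and 175 in the mutants. A second probe set, 1451991_at, read 88.7, 65.1 and 65.1 in the controls, against 99.1, 159 and 201 in the mutants. In both, each mutant array was above every control array. The log2 differences were 1.06 (SE 0.30, interval 0.33 to 1.78) and 1.01 (SE 0.34, interval 0.21 to 1.81), with limma p of 0.0106 and 0.0208 and adjusted p of 0.685 and 0.790. Without the mutant 8711 array they were 1.08 (adjusted p = 0.373) and 1.29 (adjusted p = 0.205). The remaining 2 Epha7 probe sets lay under the filter, with differences of 1.61 (SE 0.70) and 0.72 (SE 0.66), or 1.82 and 0.31 without mutant 8711, and overlapping groups. Epha7 was the 1 gene of 9 on the higher side at an unadjusted p under 0.05, where 4.4% of all tested genes were called, and groups did not overlap on the higher side for 9.44% of all genes.

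The proximal promoters of Epha7 and Epha4 are shown. All tested probe sets of Epha7 had differences above 0, and all of Epha4 below 0, with and without mutant 8711. This was not particular to them. The 2 tested Epha3 probe sets were also above 0, at 0.13 to 0.28, and at 0.14 to 0.56 without mutant 8711. No difference passed the test, and the groups of the brightest Epha4 probe set overlapped over the 6 arrays. The window runs from 250 bases before to 50 bases after the RefSeq start in GRCm38.p6, and capitals mark CpG dinucleotides. The Epha7 window is chr4:28812881-28813180 on the plus strand, with 28 CpGs and a GC content of 67.0%. The Epha4 window is chr1:77515039-77515338 on the minus strand, with 17 CpGs and a GC content of 64.0%.
Epha7: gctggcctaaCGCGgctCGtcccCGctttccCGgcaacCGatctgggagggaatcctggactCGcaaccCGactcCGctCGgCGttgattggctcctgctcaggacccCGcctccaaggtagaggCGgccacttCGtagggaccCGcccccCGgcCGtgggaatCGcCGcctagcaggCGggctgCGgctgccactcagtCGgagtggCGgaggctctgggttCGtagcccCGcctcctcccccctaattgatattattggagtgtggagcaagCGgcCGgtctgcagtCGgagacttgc
Epha4: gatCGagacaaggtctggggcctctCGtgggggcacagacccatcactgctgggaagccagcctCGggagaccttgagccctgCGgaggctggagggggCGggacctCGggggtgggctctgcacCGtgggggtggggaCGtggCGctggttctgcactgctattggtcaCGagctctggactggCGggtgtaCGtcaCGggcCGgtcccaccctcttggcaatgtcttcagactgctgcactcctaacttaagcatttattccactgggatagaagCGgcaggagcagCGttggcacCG
RefSeq windows were matched for 9 of the 10 genes, Efnb3 being without one. Over these 10 windows (Epha7 has 2 overlapping ones) the median was 25.5 CpGs and 66.5% GC, against 7 CpGs and 52.7% GC over all 32851 windows. Motifs were searched on both strands. The ETS core CCGGAA, the site type of the ETS factors downstream of FGF and ERK, was in 1 member window, that of Ephb2, and in 14.9% of all windows. The homeodomain site TAATTA was in the Epha5 window and in 5.29% of all windows. The E-box CACGTG and the T-box sequence GGTGTGA were in 0 member windows and in 7.15% and 3.98% of all windows. A match is a run of letters and not a shown site of binding.

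Epha4, a receptor for ligands of both classes that guides axons and sets segment boundaries, had lower mutant means in each of its 4 tested probe sets, but the arrays behind that differed from probe set to probe set. Probe set 1429021_at read 406, 319 and 324 in the controls, against 407, 235 and 197 in the mutants. Here mutant 8711 matched the highest control and the other mutant arrays were below all controls. The difference was -0.38 (SE 0.31, interval -1.12 to 0.35), and -0.69 (SE 0.22, adjusted p = 0.421) without mutant 8711. Probe set 1439757_s_at read 293, 422 and 189 in the controls, against 7.4, 278 and 202 in the mutants. Its difference was -1.84 (SE 1.26), and -0.27 (SE 0.35) without the mutant 8711 array, whose value lay under the filter level of 15.1. Probe set 1421929_at had a like pattern, with 276, 343 and 170 in the controls, 47.0, 245 and 188 in the mutants, and differences of -0.95 and -0.24. The dim probe set 1421928_at read 66.9, 50.6 and 43.3 and then 30.5, 36.2 and 31.0. It was the only Epha4 probe set whose groups did not overlap over the 6 arrays, with a difference of -0.67 (SE 0.31) and an adjusted p of 0.852, and -0.63 without mutant 8711. All 4 tested probe sets stayed below 0 without mutant 8711, from -0.69 to -0.24.

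Epha5, a receptor of the EphA class found in developing forebrain and retina, showed the same split between probe sets. Probe set 1435286_at read 153, 259 and 198 in the controls, against 159, 192 and 99.0 in the mutants, with mutant 9266 the lowest array and the others mixed. Its difference was -0.45 (SE 0.34, interval -1.26 to 0.35), and -0.52 (SE 0.35) without mutant 8711. Probe set 1437920_at read 224, 350 and 221 in the controls, against 15.4, 274 and 208 in the mutants, a difference of -1.39 (SE 1.02) that was -0.12 (SE 0.28) without mutant 8711. The dimmer probe sets 1420557_at and 1444690_at had -0.30 and 0.25, and -0.28 and 0.25 without that array. In mutant 8711, therefore, probe sets of 1 gene read as high as in other arrays and far lower at the same time. The part of the high Gapdh ratio of that array in this split was not tested. In each of the other 5 arrays 1437920_at read higher than 1435286_at, so that without mutant 8711 the former would stand for the gene.

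**Figure D2:**
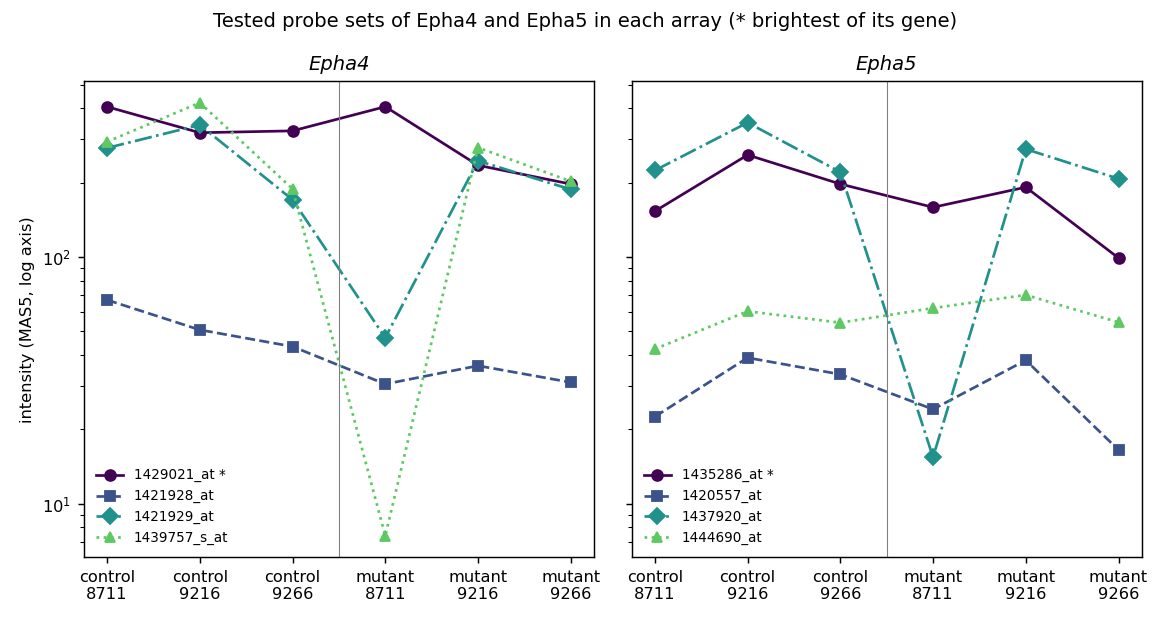
Intensity on a log axis of the 4 tested probe sets of Epha4 and of Epha5 in each of the 6 arrays, with the controls left of the grey line. Lines join the values of 1 probe set. Epha4 1439757_s_at drops to 7.4 and Epha5 1437920_at to 15.4 in mutant 8711, while Epha4 1429021_at reads 407 and Epha5 1435286_at reads 159 in the same array.

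Epha3 and Ephb3 had overlapping groups. Epha3, a receptor for ephrin-A5 graded along the nasotemporal axis of the chick retina, read 116, 52.6 and 120 in the controls, against 133, 117 and 84.9 in the mutants with 1455426_at. Control 9216 was the low array, and without it the difference of 0.28 (SE 0.40) was -0.0999. Without mutant 8711 it was 0.14 (SE 0.40). The second tested probe set, 1425575_at, had 0.13, or 0.56 without mutant 8711. Ephb3, a receptor for ephrin-Bs that acts with Ephb2 in axon guidance and epithelial sorting, read 216, 91.2 and 164 in the controls, against 89.5, 150 and 188 in the mutants. Its difference was -0.12 (SE 0.42, interval -1.12 to 0.88). It turned positive without mutant 8711 (0.18), without control 8711 (0.15), with quantile normalization (0.0395) and with median centring (0.0435).

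Read by the brightest probe sets, 6 of the 9 genes had a log2 difference below 0 and 3 above 0, with a median of -0.16. Of all tested genes 46.4% were below 0, with a median of 0.03. Without mutant 8711 the count turned to 3 below and 6 above, with a median of 0.16, and Efna5, Efnb2 and Ephb3 were the genes that changed sign. Without that array 2 genes, Efnb3 and Epha4, were lower at an unadjusted p under 0.05 (3.97% of all tested genes) and 1, Epha7, was higher (5.46%). The groups then did not overlap for Efnb3 and Epha4 on the lower side (11% of all genes) and for Epha7 and Efna5 on the higher side (15.3%). With median centring 4 of 9 were below. The direction of the set as a whole is thus not fixed by these arrays, and only Efnb3, Epha4, Epha5, Efnb1 and Epha7 kept the sign of their brightest probe set in each alternative tried. The 95% intervals of the 7 overlapping genes each reached past 1 log2 unit in at least 1 direction, so a difference of 1 log2 unit lies within each of them.

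**Figure D3:**
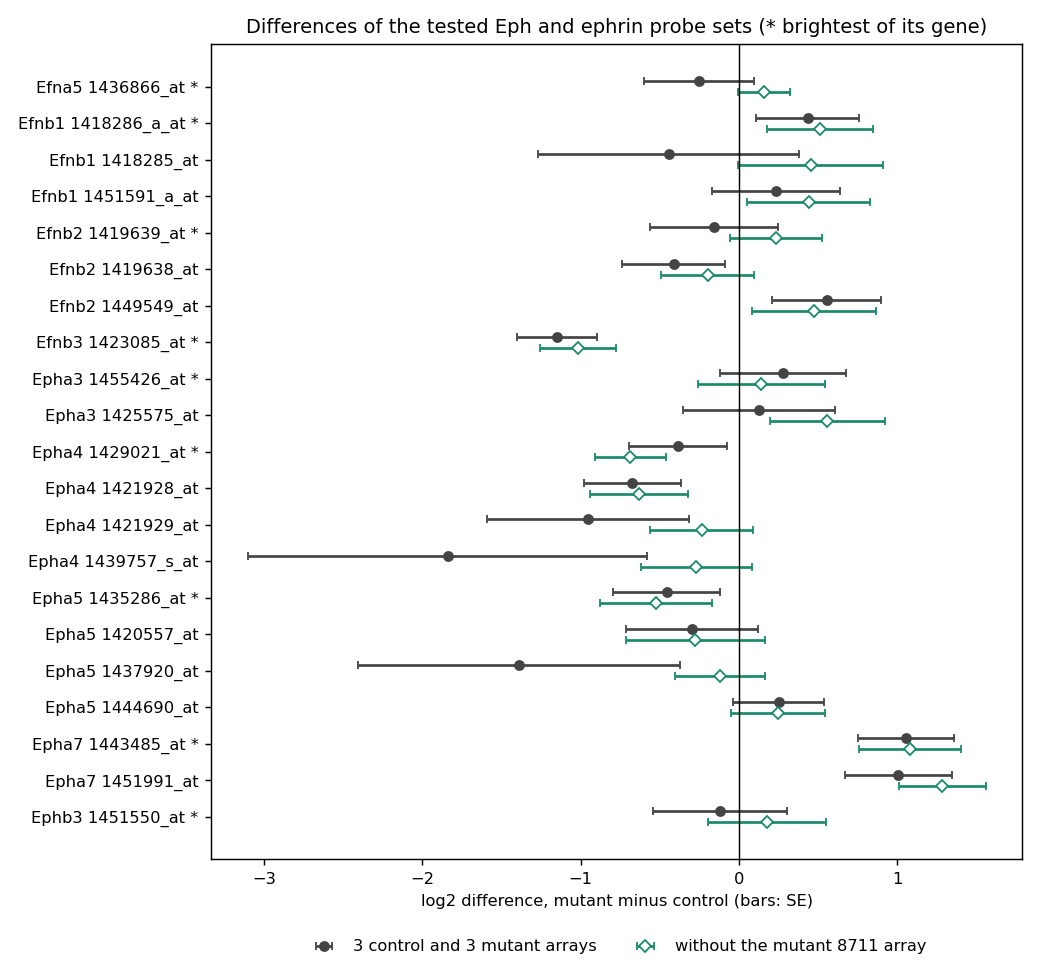
Log2 difference, mutant minus control, with its SE, for the 21 tested Eph and ephrin probe sets over all 6 arrays (filled circles) and without the mutant 8711 array (open diamonds). Over 6 arrays Epha4 1439757_s_at (-1.84) and Epha5 1437920_at (-1.39) are farthest from 0, and they move to -0.27 and -0.12 without mutant 8711, where the 2 Epha7 probe sets (1.08 and 1.29) and Efnb3 (-1.02) are farthest.

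Markers of other tissues differed between the same groups. Neural retina progenitor markers summed to 6925.4 to 7627.4 in the controls and 3828.3 to 4362.5 in the mutants (7 of 7 tested lower, of 9 listed), and retinal neuron markers to 294.3 to 596.0 and 96.0 to 185.8 (6 of 6 tested lower, of 10 listed, with Pou4f2, Isl1, Dcx and Stmn2 not tested), in the direction of Efnb3. Without mutant 8711 these lists had 6 lower and 1 higher, and 5 lower and 1 higher. Optic stalk and forebrain markers also summed lower in the mutants, to 2009.9 to 2904.8 in the controls and 618.0 to 1824.1 in the mutants (3 of 4 tested lower, of 6 listed). Pigment epithelium markers summed to 13775.8 to 15821.2 and 22409.6 to 33669.4 (12 of 12 higher), and periocular mesenchyme markers to 891.4 to 1925.0 and 2301.3 to 2705.0 (9 of 9 tested higher, of 10 listed), in the direction of Epha7. Blood and macrophage markers summed to 5286.0 to 8700.1 in the controls and 8871.2 to 10005.6 in the mutants (4 of 6 tested higher, of 7 listed). The part of tissue composition in the Efnb3 and Epha7 values was not tested. In bulk tissue, fewer cells of a type and less RNA per cell cannot be told apart.

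The rest of the receptor and ligand family was dim. Of 8 other Eph receptors, Epha1, Epha6, Epha8 and Epha10 lay under the filter. The tested 4 (Epha2, Ephb1, Ephb4 and Ephb6) all had log2 differences below 0, as did 46.4% of all tested genes. The groups overlapped in each. Their median was -0.87, or -0.28 without mutant 8711. Ephb4 had -1.23 (SE 0.98), or -0.04 without mutant 8711, where it read 1.8 against 30.2 to 52.5 in the other arrays. Epha2, an epithelial receptor, read 68.8, 37.5 and 76.4 in the controls, against 44.1, 49.2 and 9.9 in the mutants. Its log2 difference was -0.999 (SE 0.63), or -1.30 without mutant 8711, with the low value in mutant 9266 and overlapping groups. Ephb6, a receptor without kinase activity, had -0.74 (SE 0.57), or -0.34 without that array. Of the 4 other ephrins, all tested, 2 were lower and 2 higher. Efna4 had -1.40 (SE 1.03), or -0.13 without mutant 8711, where it read 1.1 against 31.7 to 49.6 in the other arrays, and Efna2 had -0.47 (SE 0.37), or -0.46. None of these 8 genes reached an unadjusted p of 0.05.

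Genes that act behind the receptors went both ways. Of 28 forward signalling effectors, 25 were tested, 13 lower and 12 higher, with a median of -0.04 (0.12 with median centring). There were 3 higher and 0 lower genes at an unadjusted p under 0.05, beside 4.4% higher and 2.52% lower over all tested genes. Without mutant 8711 there were 2 higher, Chn2 and Kalrn, and 1 lower, Inppl1 (-0.91), beside 5.46% and 3.97%. Over the 6 arrays Inppl1 had -1.94 (SE 0.87, limma p of 0.0615), with every mutant array below every control and the lowest value, 15.9, in mutant 8711. In this list the groups did not overlap for 4 genes on the higher side and 2 on the lower, beside 9.44% and 5.43% of all tested genes. Chn2, a chimaerin that switches off Rac, read 40.6, 63.3 and 48.5 in the controls, against 95.7, 117 and 99.6 in the mutants. Each mutant array was above every control. The log2 difference was 1.03 (SE 0.29, adjusted p = 0.667), or 1.09 without mutant 8711. The second Chn2 probe set had 1.20, or 1.6, but read 9.6, 11.3 and 13 in the controls, all under the filter level of 15.1. Its mutant values were 15.3, 38.7 and 36.3. It passed the filter through the mutant arrays alone, so its difference is not separate support. Kalrn, a guanine nucleotide exchange factor used by EphB receptors in dendritic spines, had a control mean of 38.7 ± 10.4 (SD, n = 3) against 83.1 ± 26.5 (SD, n = 3), and a difference of 1.06 (SE 0.36, adjusted p = 0.819), or 1.27 without mutant 8711. Its 5 other tested probe sets ran from -0.36 to 0.70, and from 0.44 to 1.54 without mutant 8711. Itsn2, an exchange factor for Cdc42, had 0.76 (SE 0.29), or 0.50 with a limma p of 0.0727 without mutant 8711, with its 4 other tested probe sets from -0.75 to 0.73, and from 0.43 to 0.56 without mutant 8711. The GTPase genes Rhoa, Rac1 and Cdc42, chosen for mention after their values were seen, had differences of 0.01, -0.31 and -0.09 with overlapping groups, and -0.09, -0.35 and 0.05 without mutant 8711.

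Of 14 partners in reverse signalling and ephrin processing, 13 were tested, 6 lower and 7 higher, with a median of 0.02. Sdcbp, the gene of syntenin, a PDZ protein that binds the tails of ephrin-Bs, was the 1 gene of 13 at an unadjusted p under 0.05, on the side where 4.4% of all tested genes were called. It read 1635, 1752 and 1645 in the controls, against 2869, 2401 and 2169 in the mutants. All mutant arrays were above all controls. The difference was 0.55 (SE 0.16, adjusted p = 0.667), or 0.44 without mutant 8711, and a second probe set had 0.75, or 0.74, with overlapping groups.

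Factors that pattern the optic cup, mostly along its dorsoventral axis, were listed as well, since some of them, such as the Tbx and Vax genes, control graded EphB and ephrin-B expression. Of 14, 11 were tested, 7 lower and 4 higher, with a median of -0.20 (0.10 without control 9266, -0.51 without control 9216). There were 4 lower and 0 higher genes at an unadjusted p under 0.05, beside 2.52% lower and 4.4% higher over all tested genes. Without mutant 8711 the same 4 genes were lower and 1, Bmp4 (1.14), was higher, beside 3.97% and 5.46%. Vax1, a homeobox gene of the optic stalk and ventral eye, read 733, 595 and 559 in the controls, against 323, 245 and 80.1 in the mutants, with a log2 difference of -1.74 (SE 0.51, adjusted p = 0.688), or -2.14 without mutant 8711. The groups were separate. The other tested Tbx and Vax genes had overlapping groups. Vax2 had -0.35 (SE 0.30), Tbx2 1.07 (SE 0.52) and Tbx3 -0.20 (SE 0.43), or -0.54, 1.17 and -0.15 without mutant 8711. Bmpr1b, a BMP receptor, had a difference of -1.08 (SE 0.32), or -1.38 without that array. Aldh1a3 had -0.71 (SE 0.27), or -0.98, and Smoc1, a secreted BMP modulator, had -1.27 (SE 0.47), or -1.20. Dimmer tested probe sets of Aldh1a3 had -1.63 and -1.84, or -1.27 and -1.50 without mutant 8711. Those of Bmpr1b had -1.26 and -0.69, or -1.20 and -0.53, and that of Vax1 had -2.14, or -2.52. Smoc1 was also low in control 9216, at 360 against 1063 and 1248 in the other controls, and 294 to 346 in the mutants. None of these probe sets passed the adjusted threshold, with adjusted p from 0.688 to 0.852 for the brightest of Vax1, Bmpr1b, Aldh1a3 and Smoc1.

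**Figure D4:**
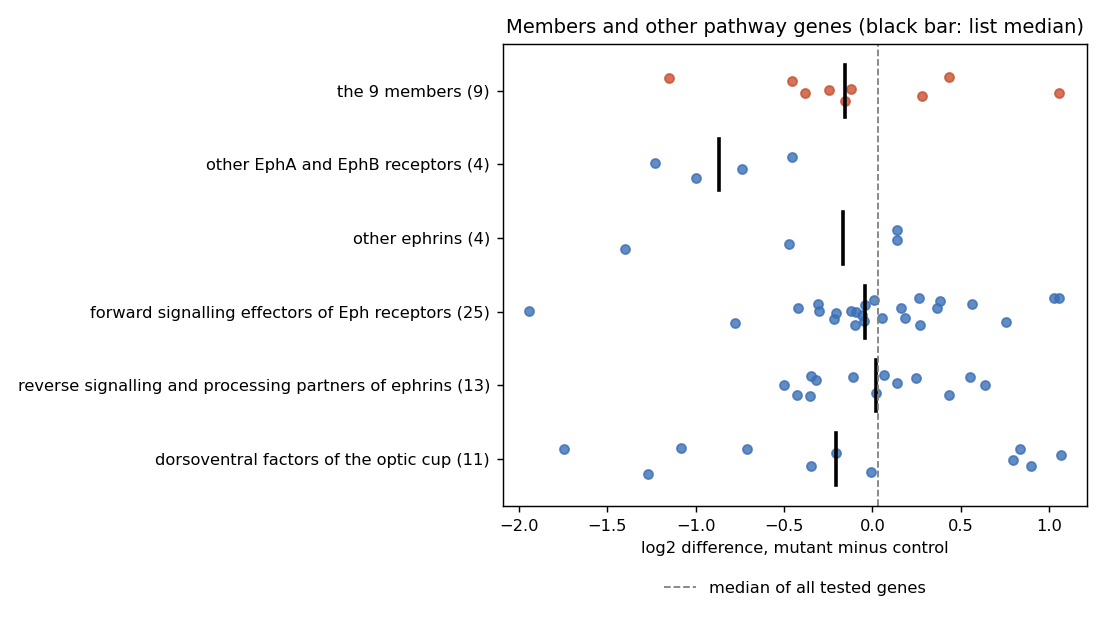
Log2 difference, mutant minus control, of the brightest tested probe set of each gene, for the 9 measured members and 5 lists of other pathway genes, with the number of tested genes in brackets. Black bars are list medians, from -0.87 in the other Eph receptors to 0.02 in the reverse signalling partners, and the dashed line is the median of all tested genes, 0.03. The vertical scatter within a list has no meaning.

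The genes closest in pattern to Efnb3 and Epha7 were sought among the other 12281 tested genes by Pearson correlation of log2 values over the 6 arrays, as a description. For Efnb3 they were Tmem43 (r = 0.991), Vps37b (r = 0.990) and Maneal (r = 0.986). Vps37b read 174, 112 and 180 in the controls, against 45.5, 56.3 and 83.4 in the mutants. For Epha7 they were Col6a2 (r = 0.988), Synpo (r = 0.987) and Tgfbrap1 (r = 0.971). Synpo read 64.4, 31.7 and 49.1 in the controls, against 110, 124 and 123 in the mutants. The 6 arrays share 2 genotypes, so that any gene separating the groups is favoured by this measure.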

How the data were processed

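RNA from 6 samples of optic fissure was measured on 1 array each, 3 control and 3 mutant. Per the labels' protocols, cRNA was biotin-labelled from 10 ug of Trizol-extracted total RNA. The submitters' processing notes name MAS5, and for its settings nothing is given in the sources used here. The authors' deposited values are linear intensity values, already scaled to a 2% trimmed mean of 150 in every array, and no further normalization was applied. The 64 manufacturer control probe sets were left out. The pseudocount of 1.7 is the 10th percentile of all values. Genes were named only from probe sets with 1 symbol, and a gene was represented by its tested probe set with the highest mean log2 value. limma 3.58.1 (lmFit, eBayes with trend and robust) ran in R 4.3.3 with statmod 1.5.0 over all 27022 tested probe sets. The code was checked on simulated data with less noise than these arrays have, which does not measure power in these data. SE and intervals are from the limma fit of the tested probe sets, and for probe sets under the filter from a fit of all probe sets. The number of arrays limits precision.

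The members and lists were chosen with earlier results of these data known. The genes named were all members, up to 4 genes of each pathway list at an unadjusted p under 0.05 or otherwise the 2 with the smallest p, the 3 genes most correlated with the member of smallest p in each direction, and Fgfr1 and Fgfr2. Ephb1, Ephb4, Rhoa, Rac1, Cdc42, Inppl1, Bmp4, Vax2, Tbx2, Tbx3 and the untested genes named lie outside that rule. Other marker lists gave medians of -1.08 (optic stalk and forebrain, 4 tested), -0.01 (lens and surface ectoderm, 6), -0.08 (neural crest and melanoblast, 4) and 0.40 (blood and macrophage, 6). Python 3.11.15 with matplotlib 3.10.9 drew the figures.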

Additional observations from a re-analysis of the deposited data

How the results depend on the processing

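The count of probe sets past the adjusted threshold, 0, was 184 with array weights. The weights were 0.151 for mutant 8711 and 5.98 for control 8711, against 0.625 to 1.59 in the other arrays. The control side of that fit thus rested mostly on control 8711. The count was 1 without mutant 8711 and 1 without both 8711 arrays. It was 0 to 1 with 1 array left out and 0 at an adjusted p of 0.10. With array weights 1 member probe set passed, Efnb3 (-1.20, adjusted p = 0.044), and so did 2 other pathway genes, Bmpr1b (-1.22, adjusted p = 0.044) and Aldh1a3 (-0.94, adjusted p = 0.0479). In the other alternatives none of these genes passed. The adjusted p of Epha7 was 0.255 or more in each. The median of the members ran from -0.27 to 0.16 with 1 array left out and was 0.29 without both 8711 arrays, and median centring moved the median of all tested probe sets from -0.05 to 0.11. Efna5 turned to 0.12 with array weights, 0.14 without both 8711 arrays and -0.45 to 0.16 with 1 array left out. Efnb2 turned to 0.0049 with median centring, 0.29 without both 8711 arrays and -0.58 to 0.24 with 1 array left out. Epha3 turned to -0.0291 with array weights and -0.0999 to 0.48 with 1 array left out. Ephb3 turned to 0.0395 with quantile normalization, 0.0435 with median centring, 0.45 without both 8711 arrays and -0.46 to 0.18 with 1 array left out. The cause of these changes was not tested. For mutant 8711 the 3 prime to middle ratio was 23.6 for Gapdh and 6.51 for Actb.

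Same-numbered arrays had correlations of deviations of 0.05, 0.48 and -0.11, against -0.45 to 0.35 for the other pairs. With 3 arrays per group these values cannot decide whether the number marks a pairing, and the main fit did not use it. With the replicate block 0 probe sets passed, and Efnb3 had -1.15 (adjusted p = 0.765) and Epha7 1.06 (adjusted p = 0.765). At the 60th percentile filter no other Eph receptor was left.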
